A study of Homo sapiens with 6 samples.

Results

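The unfolded protein response of the endoplasmic reticulum (ER) was followed through 10 genes, listed by their known roles and matched by symbol and Ensembl ID, out of 57905 genes in the count table. They were the stress sensors ERN1, EIF2AK3 and ATF6, the transcription factor XBP1, the chaperones HSPA5, HSP90B1, DNAJB9 and SDF2L1, the disulfide isomerase PDIA4 and the degradation factor HERPUD1. Nalm6 is a human B cell precursor acute lymphoblastic leukemia cell line. Its cells were exposed for 24 h either to the solvent DMSO alone (3 libraries) or to 500 nM of THZ1 (3 libraries), a covalent inhibitor of the transcription kinase CDK7 that also binds CDK12 and CDK13, and total RNA was sequenced. Both treatments used the same unmodified line, so the comparison is of 1 cell line at a single dose and time, and the labels do not say whether replicates were separate cultures, so p-values measure the spread between these libraries, which may be technical. All 10 genes were found in the count table and in the deposited FPKM table of 16730 genes, and all passed the filter on low counts together with 16622 genes in all.

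Secretory and membrane proteins fold in the ER, where the chaperone BiP (HSPA5) holds the sensors IRE1 (ERN1), PERK (EIF2AK3) and ATF6 inactive. When unfolded proteins build up, IRE1 splices the mRNA of XBP1, PERK phosphorylates eIF2α and thereby favours translation of ATF4, and ATF6 is cut in the Golgi into an active factor, and together these raise chaperones, disulfide isomerases and ER-associated degradation (ERAD). XBP1 is best known in the B lineage for building the secretory apparatus of plasma cells. The 3 arms act largely through splicing, phosphorylation and cleavage, which counts per gene do not report, and spliced and unspliced XBP1 mRNA are added together in them.

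The total count on genes was 11015480 to 11164840 in a DMSO library and 7876402 to 8314306 in a THZ1 library. At this depth 3 counts were worth at most 0.253 CPM (the share of a library's counts on the usual CPM scale, with library sizes adjusted by TMM factors) with DMSO and 0.415 with THZ1. Markers of B cell precursors were all detected, with a summed level of 4005 to 4165 CPM with DMSO against 2116 to 2187 with THZ1. Plasma cell markers, 6 of 6 detected, did not move as a group: their sum was 399 to 419 CPM against 791 to 882, with IRF4, SDC1 and PRDM1 called higher (IRF4 at 201 against 729 CPM on average), MZB1 (172 against 37.4) and JCHAIN called lower and TNFRSF17 not tested. Further, 4 of 5 T cell markers were found and summed to under 1 CPM in every library, myeloid markers to 3.88 to 4.59 against 17.3 to 18.4, and erythroid markers to 0.164 to 0.253 against 2.94 to 3.81. The part of these markers in the results was not tested. In bulk RNA fewer cells and less RNA per cell cannot be told apart.

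The unfolded protein response genes were mostly lower after THZ1, relative to the other genes of each library. Every rise, fall or lack of change given here is relative in this way. A change in the total RNA of a cell would not show in these values. By edgeR's quasi-likelihood test at a Benjamini-Hochberg adjusted p-value below 0.05, 8 of the 10 fell, 1 (ERN1) rose and 1 (HERPUD1) was not called. Among all genes tested, 41.1% were called lower and 43.5% higher, so a call in itself was the common outcome, with 84.5% of genes called. Among protein-coding genes with a mean of at least 10 CPM, which are closer to these genes in level, 52.6% were lower and 33.2% higher. The median log2 fold change of the 10 genes was −0.78, against 0.03 over all genes tested and −0.28 over those protein-coding genes. Large falls took a share near that of other genes. A log2 fall of 1 or more was called in 2 of the 10 (SDF2L1 and PDIA4), against 22.6% of all genes and 25.0% of those protein-coding genes. DNAJB9, at −0.998, and XBP1, at −0.965, lay just short of that cut. A fall of 1.5 or more was called in 1 (PDIA4), against 12.9% and 12.4%. Treatments did not overlap in CPM for 8 of the 10 genes, a share near that of all genes, 84.7%. With upper quartile factors, which moved the median of all genes by 0.19, the split was 7 lower and 2 higher, and in the deposited FPKM values 8 were lower and 0 higher.

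**Figure D1:**
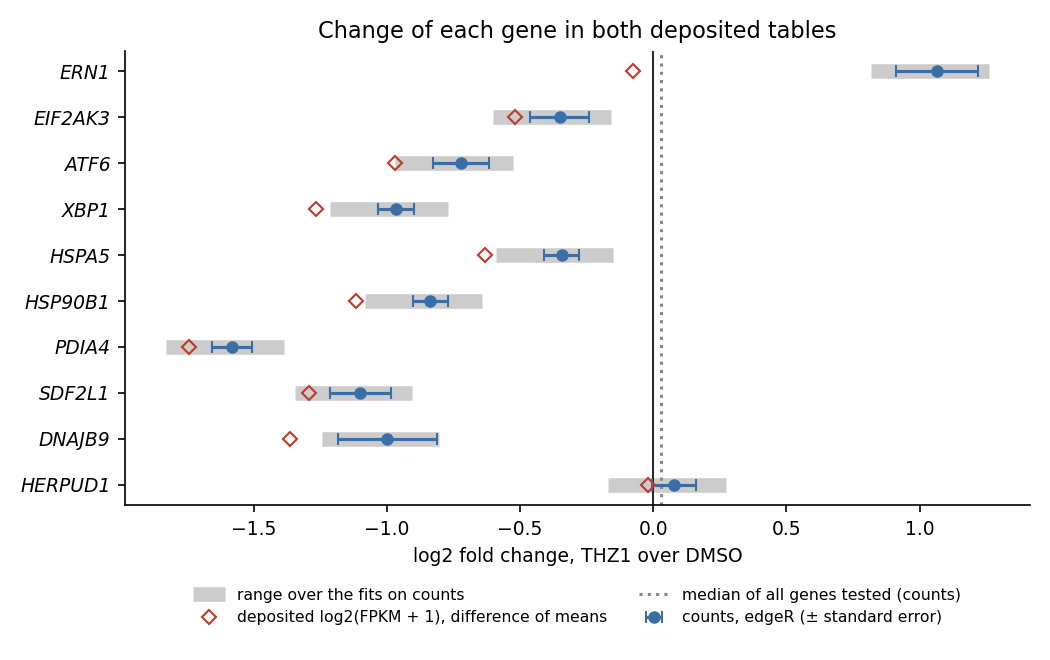
The log2 fold change of each of the 10 genes, THZ1 against DMSO, with its standard error, from edgeR on the counts, and the range that the other count settings gave. In the counts PDIA4 lies lowest at −1.58 and ERN1 alone lies clearly above 0, at 1.07, while HERPUD1 sits at 0.08. Open diamonds give the log2 difference in the deposited FPKM values, −0.07 for ERN1. The dotted line is the median of all genes tested in the counts.

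Promoters of ER chaperone genes carry the ER stress response element (ERSE), where the CCAAT factor NF-Y and ATF6 bind side by side, and a shorter form, ERSE-II. The letters CCAAT, then 9 bases of any kind, then CCACG (ERSE), and ATTGG, then 1 base of any kind, then CCACG (ERSE-II), were searched on both strands of the RefSeq promoter windows (GRCh38.p14 table, 1 window a gene, 250 bases before to 50 after the start site, which is counted as 0). All 10 genes had a window. ERSE was found in 3 of them, HSPA5, HSP90B1 and XBP1, against 0.0806% of all 27305 windows and 0.131% of the 10713 windows of tested genes. ERSE-II was found in 2, HERPUD1 and SDF2L1, against 0.0549% and 0.0933%. Both elements are known from promoters of ER chaperone genes, and the 10 genes were listed by known roles. Finding them in the windows of these 10 genes is therefore no independent result. The 6 matches are shown because they are the only full elements in these windows, 5′ to 3′ on the strand of the gene with the match in capitals and 5 flanking bases on each side, and each was placed on GRCh37 by its single match on the gene's chromosome:
HSPA5, chr9:128003665-128003693 (−): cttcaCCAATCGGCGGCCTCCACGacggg
HSP90B1, distal, chr12:104323989-104324017 (+): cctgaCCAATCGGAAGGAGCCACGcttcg
HSP90B1, proximal, chr12:104324094-104324122 (+): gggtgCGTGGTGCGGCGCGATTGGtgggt
XBP1, chr22:29196586-29196614 (−): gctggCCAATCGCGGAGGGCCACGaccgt
HERPUD1, chr16:56965932-56965952 (+): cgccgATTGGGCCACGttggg
SDF2L1, chr22:21996398-21996418 (+): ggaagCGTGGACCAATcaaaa

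The matches of HSPA5, XBP1, HERPUD1 and SDF2L1 lie outside the annotated exons of their genes, whereas both of HSP90B1 lie before the RefSeq start but inside exon sequence of a longer GENCODE transcript. Counted from the RefSeq start, the ERSE of HSPA5 spans −66 to −48 and that of XBP1 −52 to −34. In HSP90B1 the distal match spans −194 to −176, and the proximal one, which reads on the opposite strand, −89 to −71. The ERSE-II of HERPUD1 spans −117 to −107, and that of SDF2L1, also on the opposite strand, −188 to −178. The XBP1 core TGACGTGG was in 0 of the 10 windows (0.795% of all windows), and the ATF4 element TGATGNAA in 1, HERPUD1 (3.67%). The short parts are common: CCAAT was in 9 of the 10 windows, all but ATF6, against 35.7% of all windows. CCACG was in 8, all but ERN1 and ATF6, against 37.9%. Among the 10713 windows of tested genes, CCAAT was in 36.6%, CCACG in 49.9%, the XBP1 core in 0.896% and the ATF4 element in 1.75%. Every ERSE or ERSE-II match holds a CCAAT and a CCACG by construction. A missing match says only that these letters are not in this window.

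**Figure D2:**
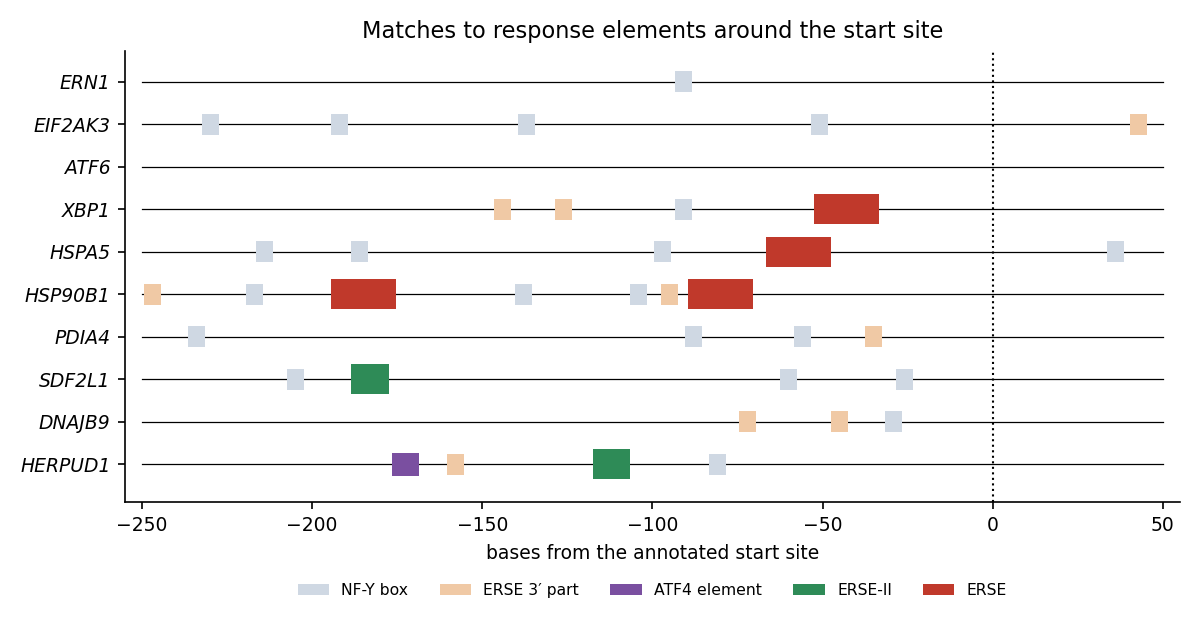
Positions of the searched letters in the RefSeq promoter window of each of the 10 genes, in bases from the start site on the horizontal axis, with a row for each gene and a marker for each motif. Full ERSE matches appear in HSPA5, HSP90B1 (2 matches) and XBP1, and ERSE-II matches in HERPUD1 and SDF2L1.

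The 5 genes with a full element did not move alike. HSP90B1, XBP1 and SDF2L1 fell by 0.84, 0.96 and 1.10 on the log2 scale and HSPA5 by 0.34, whereas HERPUD1 was not called. PDIA4, which fell most, holds neither element in its window.

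Of the 3 sensors, ERN1 rose, EIF2AK3 fell slightly and ATF6 fell. ERN1 encodes IRE1α, the kinase and endoribonuclease that splices XBP1 mRNA, and lies at chr17:62116440-62208179 (−) of GRCh37. It stood at 8.52, 7.38 and 6.75 CPM in DMSO replicates 1 to 3 and at 14.99, 14.95 and 17.5 CPM in the THZ1 replicates. Every THZ1 library was above every DMSO library. ERN1 rose by 1.07 on the log2 scale (SE 0.15), 2.09 times, with an edgeR adjusted p of 1.94e-07. The raw counts behind this were few, 80 to 103 against 108 to 131. In the deposited FPKM values ERN1 did not differ beyond the spread, at 2.77 ± 0.230 (SD, n = 3) with DMSO and 2.58 ± 0.334 with THZ1, a log2 difference of −0.07 (limma adjusted p = 0.622), and why the tables differ was not tested. Exons of 2 lncRNA genes annotated on the opposite strand share 432 and 452 bases with ERN1 and had no row of their own in the count table.

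EIF2AK3 encodes PERK, the kinase that phosphorylates eIF2α, and lies at chr2:88856259-88991036 (−). Its level was 41.3, 42.5 and 35.1 CPM in the DMSO libraries and 27.7, 36.96 and 28.6 CPM with THZ1. The treatments overlapped, since THZ1 replicate 2 lay above DMSO replicate 3. EIF2AK3 fell by 0.35 (SE 0.11), to 0.784 times, with an edgeR adjusted p of 0.00418. The call was lost with upper quartile factors (−0.16, edgeR adjusted p = 0.181) and when genes needed 10 counts or more in each library (−0.22, edgeR adjusted p = 0.0769). A lncRNA gene on the opposite strand, ENSG00000225420, shares 781 exon bases with it and held 131 to 146 counts with DMSO and 56 to 71 with THZ1, and without the strand setting of the counting their reads cannot be told apart.

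ATF6 encodes the membrane-bound transcription factor of the arm that is activated by cleavage in the Golgi, and lies at chr1:161736088-161947364 (+). It was at 45.0, 50.4 and 40.0 CPM with DMSO and at 28.01, 25.3 and 28.7 CPM with THZ1. The lowest DMSO library lay above the highest THZ1 library. ATF6 fell by 0.72 (SE 0.10), to 0.607 times (edgeR adjusted p = 1.75e-07).

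XBP1, the transcription factor downstream of IRE1, lies at chr22:29190543-29196585 (−). It stood at 509.8, 488 and 539 CPM with DMSO and at 265, 261 and 261 CPM with THZ1, with a clear gap between the treatments. The fall was 0.96 on the log2 scale (SE 0.07), to 0.512 times (edgeR adjusted p = 1.64e-14). ERN1 and XBP1, enzyme and substrate of the same arm, thus differed in direction in the counts. In the FPKM values XBP1 fell, by 1.27, with ERN1 not called.

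**Figure D3:**
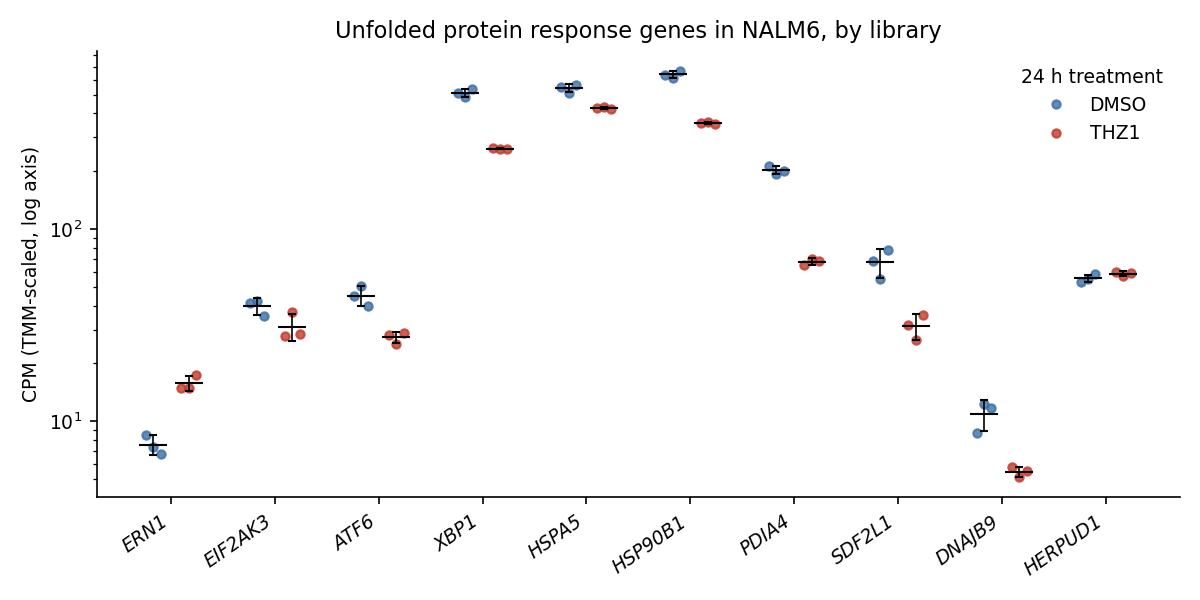
CPM of each of the 10 genes in every library, on a log axis, with a point for each of the 3 DMSO and 3 THZ1 libraries. The THZ1 points of XBP1, HSP90B1 and PDIA4 lie below all DMSO points, those of ERN1 above, and those of HERPUD1 and EIF2AK3 among or close to the DMSO points.

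The 4 chaperone genes fell, by unequal amounts. HSPA5 encodes BiP, the Hsp70 of the ER and the repressor of the sensors, and lies at chr9:127997132-128003661 (−). Its level was 546, 513 and 565 CPM with DMSO and 428, 431 and 420.2 CPM with THZ1. No libraries overlapped, although the gap was small beside the level. HSPA5 fell by 0.34 (SE 0.07), to 0.788 times (edgeR adjusted p = 1.87e-05). Over the other count settings its log2 change ran from −0.59 to −0.15.

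HSP90B1 encodes GRP94, the Hsp90 of the ER, and lies at chr12:104323885-104347709 (+). It was at 637, 611 and 664 CPM with DMSO and at 356, 361 and 354 CPM with THZ1. The THZ1 libraries lay close together and far below the DMSO libraries. HSP90B1 fell by 0.84 (SE 0.07), to 0.560 times (edgeR adjusted p = 4.01e-13). It shares 805 exon bases with UQCC6 on the opposite strand, which held 191 to 209 counts with DMSO and 89 to 123 with THZ1, against 7460 to 7868 and 2606 to 2710 counts of HSP90B1. Its processed pseudogene HSP90B2P went the other way, from 4 to 6 counts with DMSO to 55 to 73 with THZ1.

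SDF2L1 encodes a partner of the BiP and ERdj3 chaperone complex and lies at chr22:21996591-21998588 (+). Its level was 67.9, 55.2 and 78.2 CPM with DMSO and 31.6, 26.4 and 35.8 CPM with THZ1. The replicates spread more than those of HSP90B1, yet all THZ1 libraries lay below all DMSO libraries. SDF2L1 fell by 1.10 (SE 0.11), to 0.467 times (edgeR adjusted p = 1.97e-10). Its paralog SDF2, which was named after its values were seen, rose by 1.30 on the log2 scale, from 28.6 ± 3.57 to 70.2 ± 4.38 CPM (SD, n = 3, edgeR adjusted p = 1.01e-13). Within single libraries, SDF2L1 had 2.24 to 2.49 counts for each count of SDF2 with DMSO and 0.356 to 0.507 with THZ1.

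DNAJB9 encodes ERdj4, a BiP co-chaperone that helps BiP to repress IRE1, and lies at chr7:108210311-108215294 (+). It was at 8.68, 12.4 and 11.7 CPM with DMSO and at 5.79, 5.12 and 5.48 CPM with THZ1. Treatments did not overlap, though the counts were low, 105 to 151 against 37 to 44. DNAJB9 fell by 1.00 (SE 0.19), to 0.501 times (edgeR adjusted p = 1.38e-05). DNAJC3, the co-chaperone also known as P58IPK, rose by 0.77 (edgeR adjusted p = 3.88e-09), and DNAJB9 had 0.271 to 0.399 counts per count of DNAJC3 with DMSO against 0.0911 to 0.105 with THZ1.

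PDIA4 encodes ERp72, a disulfide isomerase of the ER, and lies at chr7:148700154-148725754 (−). It stood at 214, 194 and 199.7 CPM with DMSO and at 64.8, 70.0 and 68.3 CPM with THZ1. The lowest DMSO library was far above the highest THZ1 library. PDIA4 fell by 1.58 (SE 0.07), to 0.334 times (edgeR adjusted p = 1.03e-18). P4HB, the founding disulfide isomerase, rose by 0.92 (edgeR adjusted p = 7.84e-14), so that PDIA4 had 0.560 to 0.634 counts per count of P4HB with DMSO and 0.102 to 0.114 with THZ1.

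HERPUD1 encodes a membrane scaffold of the HRD1 ubiquitin ligase complex in ERAD and lies at chr16:56966054-56978776 (+). Its level was 53.3, 55.3 and 58.1 CPM with DMSO and 59.8, 56.8 and 59.4 CPM with THZ1. The treatments overlapped. The log2 difference was 0.08 (SE 0.08, edgeR adjusted p = 0.384), and its sign depended on the scaling, from 0.27 with upper quartile factors (edgeR adjusted p = 0.00366) to −0.17 with library sizes alone (edgeR adjusted p = 0.0592), while the FPKM values gave −0.02.

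Levels were compared between genes only per length, in FPKM. With DMSO, XBP1 was highest at 499 ± 11.1 FPKM (SD, n = 3), in the top percentiles of the table (98.9), followed by HSPA5 at 408 ± 15.9 and HSP90B1 at 400.2 ± 16.95, which overlapped. SDF2L1 at 186 ± 26.2 and PDIA4 at 180.3 ± 12.8 FPKM overlapped as well. Well below came HERPUD1 at 30.6 ± 1.13, EIF2AK3 at 20.5 ± 1.73, ATF6 at 16.4 ± 1.56, DNAJB9 at 12.6 ± 2.01 and ERN1 at 2.77 ± 0.230 FPKM, none of which overlapped its neighbour.

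With THZ1 the order of level per length was the same but for the top: HSPA5 led at 263 ± 7.83 FPKM (SD, n = 3), ahead of XBP1 at 207 ± 1.17 and HSP90B1 at 184 ± 2.41, and no neighbours overlapped. SDF2L1 stood at 75.3 ± 11.18, PDIA4 at 53.1 ± 1.90 and HERPUD1 at 30.1 ± 1.10 FPKM. EIF2AK3 was at 14.1 ± 2.43, ATF6 at 7.89 ± 0.716, DNAJB9 at 4.23 ± 0.382 and ERN1 at 2.58 ± 0.334 FPKM. In FPKM the falls were larger than in the counts: the log2 difference was −1.74 for PDIA4, −1.36 for DNAJB9, −1.29 for SDF2L1, −1.11 for HSP90B1, −0.97 for ATF6, −0.63 for HSPA5 and −0.52 for EIF2AK3. The median over all 16730 genes with FPKM values was itself −0.15, against 0.03 over the 16622 genes tested in the counts.

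**Figure D4:**
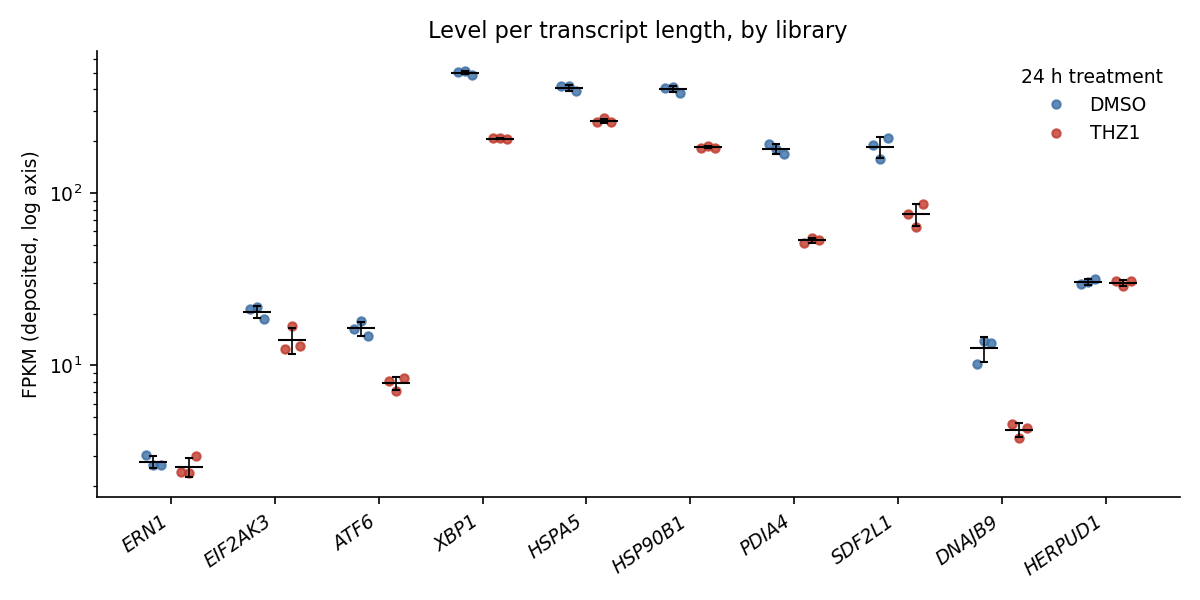
Deposited FPKM of each of the 10 genes in every library on a log axis, with points for the DMSO and THZ1 libraries. XBP1, HSPA5 and HSP90B1 lie at the top in both treatments and ERN1, at 2.77 and 2.58 FPKM on average, at the bottom.

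By the same counts, the genes took a smaller share of each library. The 10 together made up 0.225 to 0.233% of the counts with DMSO and 0.117 to 0.118% with THZ1. With TMM scaling their sum was 2030 to 2197 CPM with DMSO and 1278 to 1288 with THZ1. Most of these counts came from HSPA5, HSP90B1 and XBP1. Ratios within libraries, which no scaling factor changes, were chosen after the values were seen. HSPA5 had 0.839 to 0.857 counts per count of HSP90B1 with DMSO and 1.19 to 1.20 with THZ1, and 2.55 to 2.83 counts per count of PDIA4 against 6.15 to 6.60. Both ratios were higher in every THZ1 library than in every DMSO library.

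The other genes of the pathway moved in both directions. Of 113 genes on the lists besides the 10, 111 were tested, and 71 were lower (64.0%), 31 higher (27.9%) and 9 not called, with a median log2 fold change of −0.47, against 52.6% lower, 33.2% higher and a median of −0.28 among the protein-coding genes of 10 CPM or more described above and 41.1% lower among all genes tested. The share of each list called lower is read below against that 52.6%, with no test of the difference. TUSC3 and UGGT2, of the glycosylation machinery, had no counts in any library. In the counts below, the 10 genes are included in the lists they belong to, and a few genes are on a pair of lists. Changes are given on the log2 scale, each from 3 libraries a treatment, and the standard errors of the genes named ran from 0.06 (HYOU1) to 0.23 (MBTPS2), save 0.48 for TXNDC5. CALR, CREB3L2 and MBTPS1 had no deposited FPKM values, so their changes come from the counts alone.

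Among 11 sensors and transcription factors, 4 rose and 7 fell (63.6%), with a median of −0.35. ATF4, whose translation PERK favours, rose by 1.20, from 562 ± 60.9 to 1291 ± 53.0 CPM (SD, n = 3, edgeR adjusted p = 8.76e-16), and DDIT3, which encodes CHOP, by 0.75, from 22.6 to 38.0 CPM (edgeR adjusted p = 3.32e-07). CREB3L4 rose by 1.85, whereas CREB3L2 fell by 1.30 and CREBZF by 1.56. ATF4 and DDIT3 therefore rose while ATF6 and XBP1 fell.

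Of 6 partners of IRE1, 5 fell (83.3%) and 1 rose, with a median of −1.26. RTCB, the ligase that rejoins XBP1 mRNA after IRE1 has cut it, fell by 1.53, from 108 to 37.5 CPM, and its helicase partner DDX1 by 1.63, from 167 to 53.8 CPM. TRAF2, the adaptor that links IRE1 to JNK signaling, fell by 1.25. TMBIM6 (BAX inhibitor 1), an IRE1 inhibitor, rose by 0.87, from 283 to 515 CPM. MAP3K5 and ZBTB8OS, the other 2 lower genes, had no values in the FPKM table, and of the 4 that did, 3 were lower and 1 higher in the FPKM fits.

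Of 7 genes of ATF6 processing, 5 fell (71.4%) and 2 rose, with a median of −0.26. The Golgi proteases that cut ATF6 both fell. MBTPS1 (site-1 protease) fell by 1.21, from 49.7 to 21.5 CPM. MBTPS2 (site-2 protease) fell by 1.72, from 9.81 to 2.98 CPM (edgeR adjusted p = 4.73e-08). Its counts were few, 107 to 127 with DMSO and 13 to 32 with THZ1, and with each library left out its change ran from −2.13 to −1.46. Subunits of NF-Y, the factor that binds CCAAT, were split, with NFYA higher by 1.11 and NFYB lower by 0.62. SEC24C, of the COPII coat that carries ATF6 out of the ER, rose by 1.19. Only 3 of the 7 were lower with RLE factors, with upper quartile factors or with the minimum of 10 counts in each library.

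The PERK arm was evenly divided, with 4 of 8 genes higher and 4 lower and a median of 0.10. PPP1R15A (GADD34), the phosphatase subunit that reverses eIF2α phosphorylation, rose by 2.47, from 31.0 ± 3.23 to 172 ± 4.90 CPM (SD, n = 3, edgeR adjusted p = 2.02e-22). CHAC1, a glutathione-degrading enzyme and known ATF4 target, rose by 2.59, from 12.4 ± 1.88 to 74.1 ± 12.7 CPM (edgeR adjusted p = 7.92e-19). EIF2B5, a subunit of the exchange factor of eIF2, fell by 1.54 and NCK1 by 0.75. TRIB3, another known ATF4 target, which was named after its values were seen, fell by 0.46 (edgeR adjusted p = 9.08e-06).

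Among 21 lumenal chaperones and co-chaperones, 12 fell (57.1%), 7 rose and 2 were not called, with a median of −0.34, both near the values of those protein-coding genes. The lectin chaperones CALR and CANX fell, CALR by 1.28, from 928 to 381 CPM (edgeR adjusted p = 5.89e-17), and CANX by 0.81 (edgeR adjusted p = 3.00e-12). DNAJB11 (ERdj3) fell by 1.41 and the prolyl isomerase FKBP11 by 1.31. CRELD2, an ER stress-induced gene, rose by 1.82, from 59.3 ± 3.54 to 209 ± 6.13 CPM (SD, n = 3, edgeR adjusted p = 2.29e-20). FKBP14 rose by 1.45 and HYOU1, the exchange factor of BiP, by 0.54, from 249 to 363 CPM (edgeR adjusted p = 4.84e-09), in contrast to the fall of HSPA5 itself.

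Of 16 disulfide isomerases and oxidases, 12 were lower (75.0%), 3 higher and 1 not called, with a median of −0.91. Besides PDIA4, the peroxiredoxin PRDX4 fell by 1.83 and TMX4 by 1.69. P4HB and TMX3 rose, TMX3 by 0.40, as did TXNDC5, which was named after its values were seen and had a mean under 1 CPM. For TMX3 the call was lost with library sizes alone (0.15, edgeR adjusted p = 0.0831).

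In ERAD, 14 of 24 genes fell (58.3%), 7 rose and 3, HERPUD1 among them, were not called, and the median was −0.29, again near the values of those protein-coding genes. SEL1L, the partner of the ligase HRD1, fell by 1.92, from 66.9 to 17.6 CPM (edgeR adjusted p = 1.43e-16), and SYVN1, which encodes HRD1, by 0.42, from 205 to 153 CPM (edgeR adjusted p = 1.77e-06). The glycanase NGLY1 fell by 2.02. The ubiquitin-conjugating enzyme UBE2J2 rose by 0.89 and AUP1, which recruits such enzymes, by 0.85. EDEM1, a mannosidase-like factor that is a known XBP1 target, was higher by 0.33 (edgeR adjusted p = 0.000391), a call lost with library sizes alone (0.08, edgeR adjusted p = 0.371) and in the FPKM values (0.15, limma adjusted p = 0.302). With library sizes alone 3 of the 24 were higher, and 4 in the FPKM fits.

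Of 16 genes of translocation into the ER and signal peptide removal, 13 fell (81.2%), 2 rose and 1 was not called, with a median of −0.78. SERP1, a stress-associated translocon protein, fell by 1.68 and the signal peptidase subunit SEC11C by 1.62. The channel subunit SEC61A1 rose by 0.79, from 230 to 396 CPM, and SEC11A by 0.43, a call lost with library sizes alone (0.18, edgeR adjusted p = 0.0506). Of 13 tested genes of N-glycosylation and glycan trimming, 7 fell (53.8%), 3 rose and 3 were not called, with a median of −0.29, close to the share and median of those protein-coding genes. UGGT1, the glucosyltransferase that senses misfolded glycoproteins, fell by 2.08, from 120 to 28.3 CPM, and the oligosaccharyltransferase STT3B by 1.52. PRKCSH, the β subunit of glucosidase II, rose by 1.27 and the mannosidase MAN1B1 by 1.01.

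**Figure D5:**
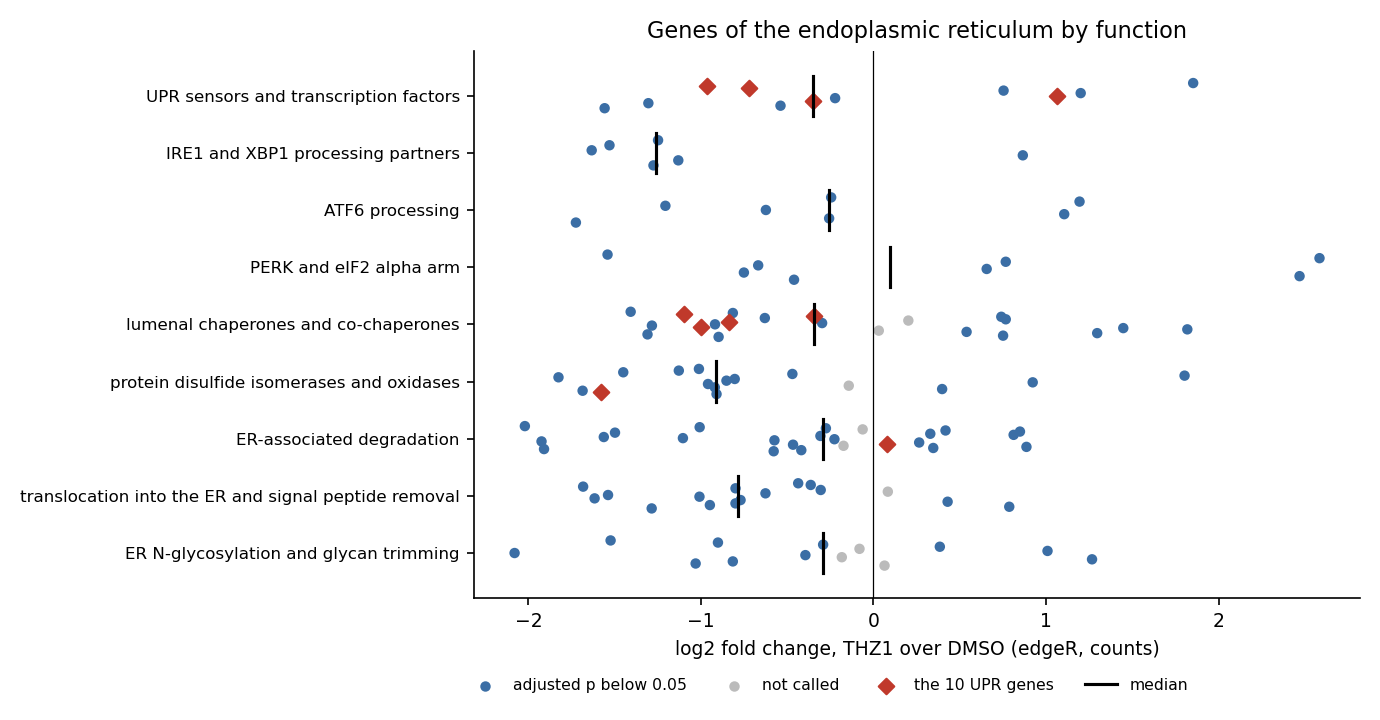
Log2 fold change, THZ1 against DMSO, of every tested gene on each pathway list, with a point for each gene, a row for each list and the list's median marked. Medians run from −1.26 for the IRE1 partners to 0.10 for the PERK arm, and single genes from −2.08 (UGGT1) to 2.59 (CHAC1).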

How the data were processed

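RNA-SEQ libraries of Nalm6 cells, 3 with DMSO and 3 with 500 nM of THZ1, were grouped by the titles in the labels. The authors deposited raw counts per gene, from reads trimmed with cutadapt, mapped with STAR to GRCh37 and counted with HTSeq, as the paper's methods and the submitters' processing notes give. The annotation and the strand setting are not given in the sources used here. A second table deposited by the authors holds FPKM values by RSEM on a log2 scale, read as log2(FPKM + 1) and taken back to FPKM, and its sorted values are nearly alike within a treatment (median difference 0.0015 to 0.0017, against 0.0870 to 0.0902 between treatments), by a step that is not named. It also holds p-values, log2 fold changes and FDR values of the authors' own comparison, which were not used. The number of other columns with values per sample was 0.

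Counts were filtered (edgeR filterByExpr, minimum count 10, minimum total 15), scaled by TMM and tested two-sided with edgeR's quasi-likelihood test, adjusted by Benjamini-Hochberg over 16622 genes and called below 0.05. The pipeline was run on simulated counts with far fewer changed genes than were called here. That run therefore does not show how it behaves on these data. The fit was repeated with DESeq2, with no normalization factors (library sizes alone), upper quartile or RLE factors, with a minimum of 10 counts in each library or an unfiltered table, with the replicate as a block, without each library in turn, and by limma on FPKM (pseudocount 1 or 0.1, mean at least 0.1, 1 or unfiltered). Replicate libraries differed by more than sampling noise (chi-square per gene 1.78 to 9.19) and were kept apart. Besides the 10 genes, the 2 highest and 2 lowest called genes of each pathway list with a mean of at least 10 CPM were named, with 13 genes whatever their values. The members and lists were chosen with earlier results of these data known. Fold changes have a standard error (SE) from the fit. Gene positions are from GENCODE 44 lifted to GRCh37. R 4.3.3, edgeR 4.0.16, limma 3.58.1, DESeq2 1.42.0, Python 3.11.15, pandas 2.3.3, numpy 2.4.6 and matplotlib 3.10.9 were used.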

Additional observations from a re-analysis of the deposited data

How the results depend on the processing

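The number of the 10 genes called lower was 8, or 7 with upper quartile factors and with at least 10 counts in every library. The number called higher was 1, but 2 under both of those settings, where HERPUD1 was added, and 0 in the limma fits on FPKM, where 0 had an unadjusted p below 0.05 either, against 1 by edgeR and by DESeq2. The median log2 fold change of the 10, −0.78, was −0.71 with RLE factors, −0.59 with upper quartile factors, −1.03 with library sizes alone, −0.65 with at least 10 counts in every library, −0.87 with no filter, −1.08 in FPKM with a pseudocount of 0.1 and −1.04 in the other FPKM fits, and −0.82 to −0.77 with each library left out. Upper quartile factors moved the median of all genes by 0.19 and library sizes alone by −0.25. With at least 10 counts in every library the median was −0.03 over the 12808 genes tested there, against 0.03 over the 16622 of the main fit. ERN1 turned to −0.075 in FPKM with a pseudocount of 1 and to −0.10 with 0.1. HERPUD1 turned to −0.17 with library sizes alone, −0.0086 with no filter and −0.021 in FPKM. The causes were not tested. Same-numbered libraries did not deviate together (correlations −0.0040, 0.00097 and 0.0206), so the numbers were not taken to pair them, and with the replicate as a block 8 genes were lower and 1 higher, with a median of −0.78. Of the values of single named genes over all alternatives, 885 kept their direction and call, 9 lost the call, 2 gained it and 10 reversed. Of the 10 genes, ERN1 and DNAJB9 rest on the fewest counts. The p-values of limma rest on FPKM values already made alike within a treatment.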

Other observations

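The divergent lncRNA gene EIF2AK3-DT, which lies inside the annotated span of EIF2AK3 on the opposite strand and shares no exon bases with it, had 21 to 35 counts with DMSO and 104 to 118 with THZ1, from 2.40 ± 0.573 to 14.7 ± 0.772 CPM (SD, n = 3), a rise of 2.60 on the log2 scale (SE 0.20, edgeR adjusted p = 1.86e-13), while EIF2AK3 itself fell. The pseudogene HSP90B2P rose from 0.415 ± 0.0843 to 8.32 ± 1.11 CPM, by 4.29 (SE 0.32, edgeR adjusted p = 7.31e-14), while HSP90B1 fell. Whether reads of HSP90B1 were counted on this copy was not tested. The pseudogenes HSPA5P1, XBP1P1 and HSP90B3P had at most 6 counts in any library. All of these were named after their values were seen.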
